A study of Mus musculus with 6 samples.

Results

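The mitochondrial ribosomal protein genes taken here are the protein-coding genes of the deposited expression table whose names begin with Mrpl or Mrps followed by a number. Of 83 genes with such names, 78 are protein-coding and 5 are pseudogenes. Mrpl40, which lies in the chromosome interval deleted in these mice, was left out, so that 77 of 54532 genes in the table were members, 48 of the large subunit and 29 of the small subunit by name. They lie on 17 chromosomes. Brain endothelial cells of Df(h22q11)/+ mice were sorted and profiled by RNA-seq. In this strain 1 chromosome copy lacks the segment matching the human interval lost in 22q11.2 deletion syndrome. All 6 libraries carry this deletion, and wild-type mice were not analysed here. At 12 to 16 weeks of age, mice were kept on base chow (untreated) or on chow with 0.5% bezafibrate for 4 weeks, a lipid-lowering drug and agonist of the PPAR receptors. The untreated group had 3 libraries (female F_1 and F_2, male M_1) and the bezafibrate group had 3 (female F_1, male M_1 and M_2), each a pool of 3 brains alike in sex, genotype and chow. Replicates are pools of separate animals, and a p-value here reflects how much such pools vary. The comparison asked how bezafibrate in the diet altered the transcripts of these cells.

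The mitochondrial ribosome translates the few mRNAs of the mitochondrial genome, which encode core subunits of the respiratory chain and ATP synthase. Its rRNAs are transcribed inside the organelle, while its proteins are encoded in the nucleus, made in the cytosol and imported. The large subunit joins amino acids and is anchored at the inner membrane. The small subunit holds the mRNA and reads its codons. Some of its proteins belong to families found in every ribosome, some are shared with bacteria, and others occur in mitochondria alone. In brain endothelium, mitochondria are known for supporting the transport work of the blood-brain barrier.

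The libraries held 16858130 to 20228619 reads summed over genes, and 11060 to 11387 genes at an FPKM (fragments per kilobase, scaled to library size, so a level per gene length) of at least 1. Endothelial markers summed to 5068 to 8860 FPKM, and fibroblast markers, with 0 of 4 genes measured, to at most 3.06. On the first principal component untreated M_1 (30.3) and bezafibrate F_1 (24.4) had the highest scores, and the remaining 4 libraries were spread from -22.6 to 1.62. Below, 6 values in a row are FPKM in the order untreated F_1, F_2 and M_1, then bezafibrate F_1, M_1 and M_2.

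Of the 77 members, 74 passed the expression filter of at least 1 FPKM in at least 3 libraries, 46 of the large and 28 of the small subunit. Their transcripts were of low to moderate level. Over the 76 members with any read, mean FPKM over the libraries ran from 0.542 to 21.3 with a median of 4.60, and the 90th percentile lay 8.01 times above the 10th. The large subunit had a median of 5.57 FPKM and the small subunit 4.27.

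Mrps21, a small-subunit protein of a family shared with bacteria, had the highest deposited level of all members, at 21.3 FPKM over 6 libraries. In the large subunit Mrpl4, of a family found in all ribosomes, led with 17.5, 18.0, 22.6, 19.2, 19.2 and 21.4 FPKM. Its groups overlapped and its levels spread little. Mrpl34, a family shared with bacteria, followed with 13.6, 16.2, 18.1, 12.1, 22.7 and 30.1. Both male bezafibrate libraries were the highest for Mrpl34, and the female bezafibrate library was the lowest. Mrpl43, a protein specific to mitochondria, had 11.3, 18.6, 17.6, 19.2, 14.9 and 13.3, and Mrpl27, whose bacterial relative reaches the peptidyl transferase centre, had 17.6, 11.3, 13.1, 10.2, 12.6 and 18.6. Neither ordered the groups. The next small-subunit genes were Mrps24 (13.8, 14.2, 16.1, 14.8, 16.9 and 20.9), Mrps7 (10.2, 13.2, 12.1, 15.8, 12.6 and 12.9) and Mrps23 (10.9, 13.4, 13.7, 12.1, 11.4 and 12.3). Mrps24 and Mrps7 belong to families of all ribosomes and Mrps23 is specific to mitochondria. In the order Mrps21, Mrpl4, Mrpl34, Mrps24, Mrpl43 and Mrpl27, neighbours differed by less than the larger SD of the pair over libraries.

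**Figure D1:**
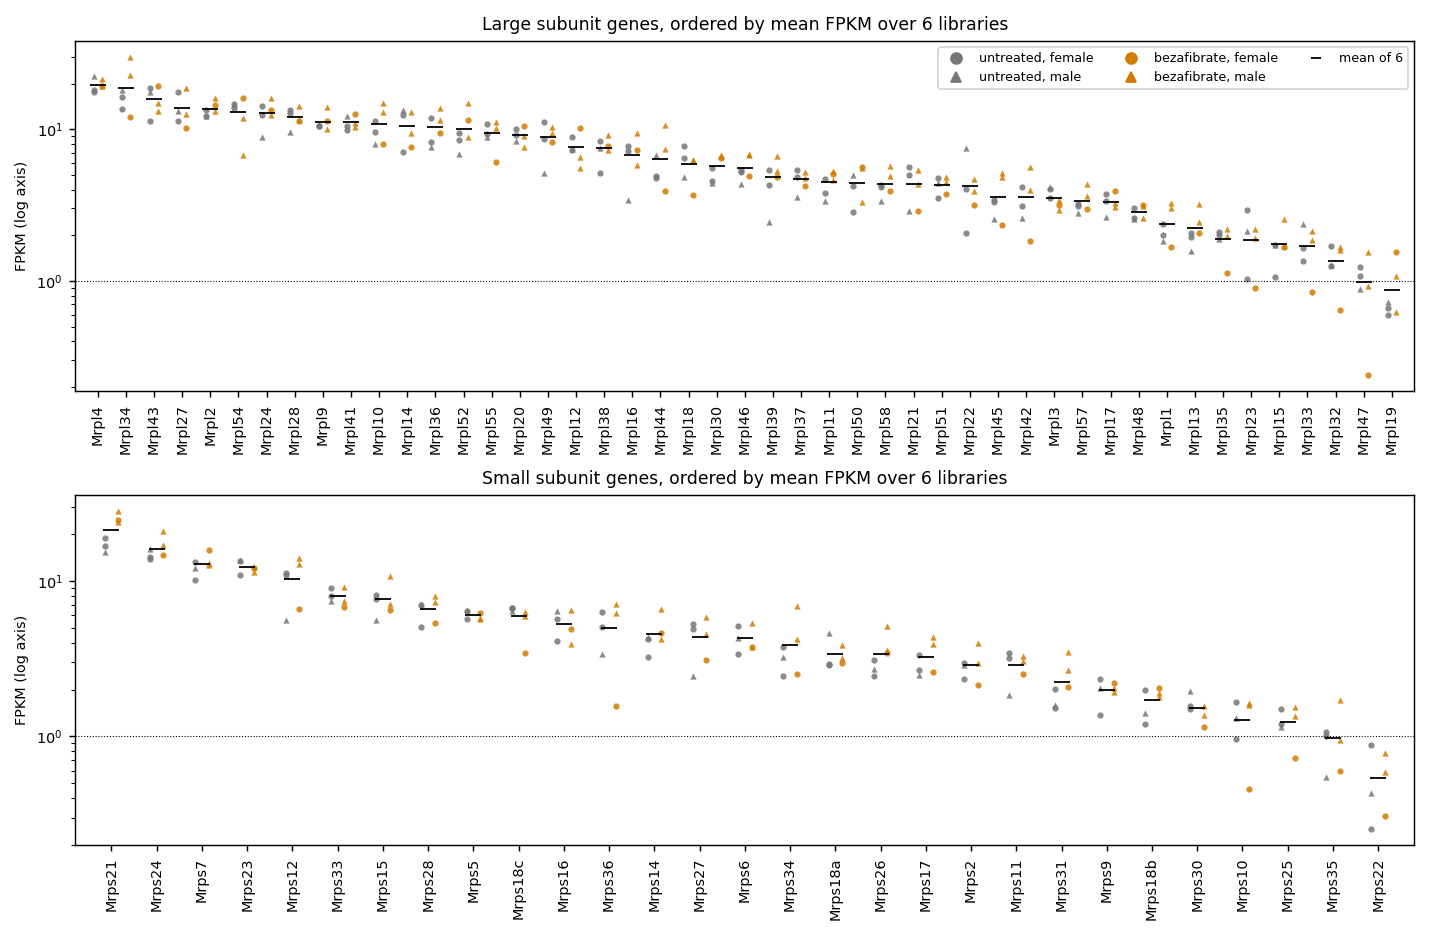
FPKM (log axis) of the 76 members with reads, large subunit above and small subunit below, ordered by the mean over 6 libraries (black dash); grey points are untreated, orange bezafibrate, circles female and triangles male, and the dotted line marks 1 FPKM. Means ran from 21.3 FPKM for Mrps21 to 0.542 for Mrps22, and the groups overlapped for most genes.

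The 3 lowest measured members were Mrps35 (0.982 FPKM on average), Mrpl47 (0.986) and Mrps25 (1.24). Mrps25 shares 69.8% of its exon bases with Nr2c2, so reads of the pair may have been split by the authors' counting. Mrpl19, Mrps22 and Mrpl53 did not pass the filter. Mrpl19 had 0.593, 0.659, 0.721, 1.54, 1.08 and 0.625 FPKM and Mrps22, mutated in a human disorder of oxidative phosphorylation, 0.885, 0.253, 0.432, 0.306, 0.589 and 0.787. Mrpl53 had 0 reads in every library. Mrpl53 shares 87.97% of its exon bases with Gm42688, annotated on the same strand, and how reads of such an overlap were assigned is not stated. Gm42688 itself had 0.055, 0.232, 0.341, 0, 0.194 and 0.205 FPKM.

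Levels depended on the gene length used by the table. In 72 of 77 members that length equalled the union of all annotated exons within 1%, and for 9 members it was more than 3 times the length of the principal transcript (the main isoform in the GENCODE annotation). Per principal transcript, the median over members was 8.36 FPKM in place of 4.60 (8.90 for the large and 7.74 for the small subunit). All reads of a gene were divided by that length, also any from exons outside the principal transcript. These values are therefore upper limits for the principal transcript. Mrpl33 moved most, from 1.71 FPKM and rank 68 to 26.2 and rank 4, since its listed length is 15.3 times that of its principal transcript. Mrpl42 moved from 3.56 FPKM and rank 50 to 19.7 and rank 8, Mrpl13 from rank 62 to 18 and Mrps18a from rank 52 to 19. Mrpl4 led on this scale at 39.9 FPKM and Mrps21 followed at 32.2. The length cancels in a comparison of the same gene between libraries, up to the pseudocount.

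**Figure D2:**
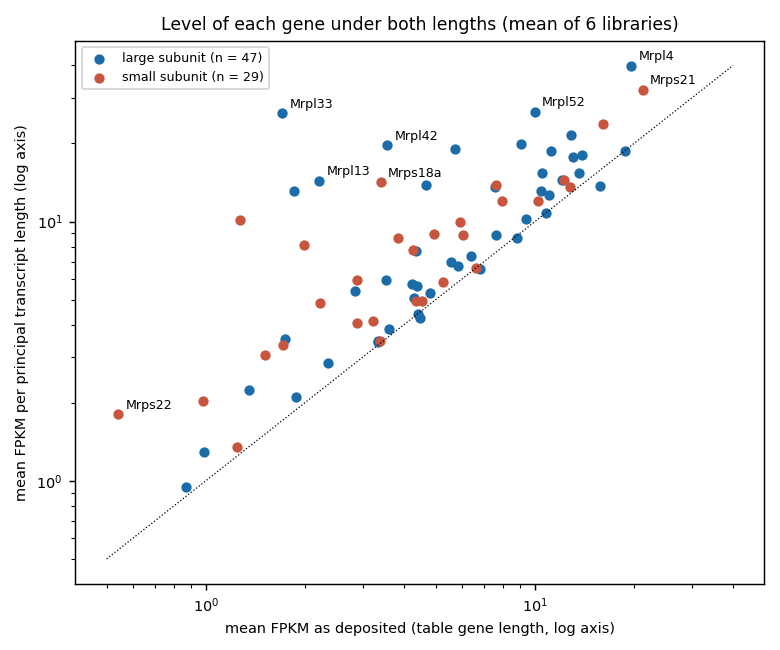
Mean FPKM over 6 libraries with the deposited gene length (x, log axis) against the same reads per length of the principal transcript (y, log axis), 1 point per member with reads; the dotted line marks equal values. Mrpl33 lies farthest above the line, at 1.71 against 26.2 FPKM.

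Bezafibrate changed no mitochondrial ribosomal protein gene past the threshold. A call required an adjusted p under 0.05 by limma on log2(FPKM + 1), with adjustment over all 11277 genes tested. Of the members 0 of 74 were called, where 0.00887% of all genes tested were, and limma-voom on recovered reads also called 0. The smallest adjusted p among members was 0.962. At an unadjusted p under 0.05, limma counted 4 members, each higher with bezafibrate (Mrps21, Mrpl30, Mrps26 and Mrps31), beside 4.19% of all genes, and limma-voom 3. The log2 differences (bezafibrate minus untreated) ran from -0.36 for Mrpl54 to 0.56 for Mrps21, and 73 of 74 were smaller than 0.5 in size, with a median SE of 0.203.

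Most members lay slightly above 0. The difference was above 0 in 49 of 74 members (66.2%), where it was above 0 in 48.2% of all genes tested. The median was 0.09 (quartiles -0.07 and 0.25), against -0.01 (-0.14 and 0.13) over all genes. Library means of the subunits spread by more than 0.09 within groups (pooled SD 0.122 large and 0.153 small). The subunits did not separate. The large subunit had 31 of 46 above 0 with a median of 0.09, and the small subunit 18 of 28, also with 0.09. The structure of the mammalian mitoribosome places Mrps18a and Mrps30 in the large subunit, and Mrps36 is now known as a part of the 2-oxoglutarate dehydrogenase complex. With those 3 genes moved, the medians were 0.07 for 48 large-subunit and 0.10 for 25 small-subunit genes.

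**Figure D3:**
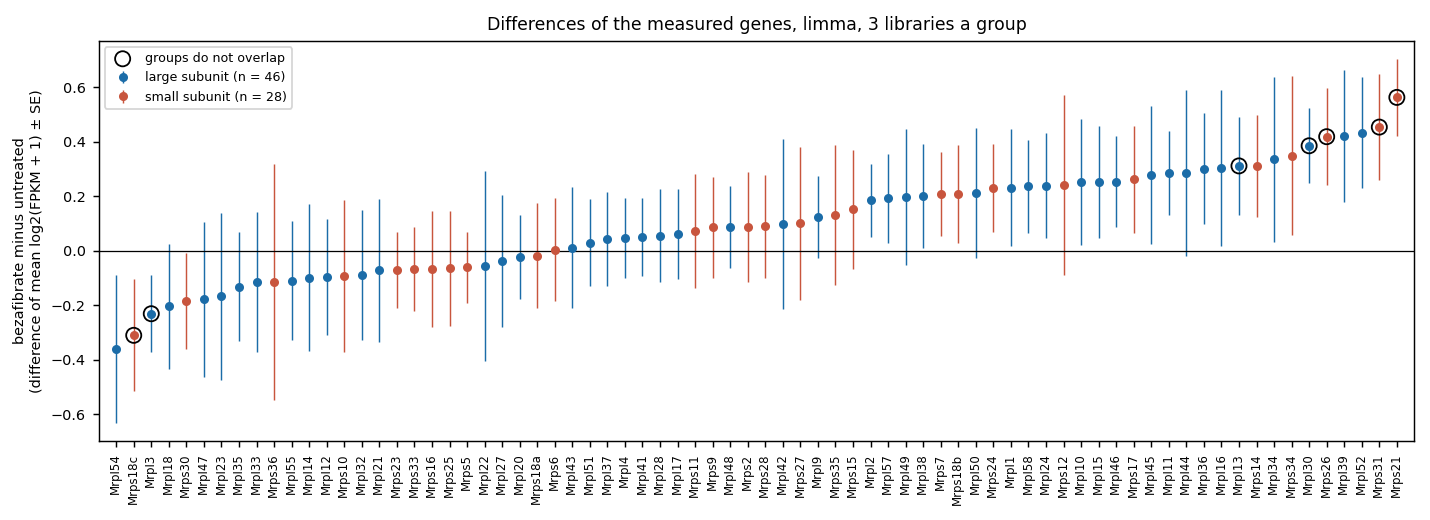
Difference of mean log2(FPKM + 1), bezafibrate minus untreated (points, bars ± SE from limma, 3 libraries a group), for the 74 measured members in rising order, blue for the large and red for the small subunit. Rings mark the 7 members whose groups do not overlap, and 49 of 74 points lie above 0.

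The groups did not overlap in 7 of 74 members (9.46%), beside 8.42% of all genes tested. With bezafibrate 5 were higher (4.29% of all genes) and 2 were lower (4.13%). These shares were near the background. A single gene cannot reach a two-sided exact permutation p below 0.1 with 3 libraries against 3.

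In the small subunit, Mrps21 (ENSMUSG00000054312, GRCm38 chromosome 3, 95862634 to 95871519, minus strand) had 16.7, 18.9, 15.4, 24.6, 28.3 and 23.8 FPKM. Each bezafibrate library lay above each untreated library. Group means were 16.99 ± 1.79 and 25.6 ± 2.43 FPKM (SD, n = 3 each). The difference on the log2 scale was 0.56 (SE 0.141, limma adjusted p = 0.962). Mrps31, a protein specific to mitochondria, had 1.53, 2.01, 1.59, 2.08, 2.66 and 3.49, with the lowest bezafibrate value just above the highest untreated value. Its log2 difference was 0.45 (SE 0.193). Mrps26, also specific to mitochondria, had 2.45, 3.08, 2.69, 3.43, 3.58 and 5.12. Male bezafibrate M_2 was well above the others for Mrps26, and the log2 difference was 0.42 (SE 0.177). Mrps18c, the small-subunit relative of a bacterial protein with 3 mammalian copies, was lower, at 6.66, 6.68, 6.36, 3.46, 5.99 and 6.28. Bezafibrate F_1 was far below the rest and the other bezafibrate libraries were just below the untreated range. The log2 difference of Mrps18c was -0.31 (SE 0.205).

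In the large subunit, Mrpl30, of a family found in all ribosomes (GRCm38 chromosome 1, 37890477 to 37898535, plus strand), had 4.55, 5.59, 4.42, 6.48, 6.62 and 6.75 FPKM. The bezafibrate libraries lay close together (6.61 ± 0.135, SD, n = 3) and above every untreated library (4.85 ± 0.638). The log2 difference was 0.38 (SE 0.138, limma adjusted p = 0.9987). Mrpl13, of another family found in all ribosomes, had 1.94, 2.07, 1.58, 2.07, 2.45 and 3.19. Untreated F_2 and bezafibrate F_1 were equal for Mrpl13 to the digits printed, so its place among the 7 rests on a difference too small to print, and the log2 difference was 0.31 (SE 0.181). Mrpl3, whose bacterial relative lies beside the peptidyl transferase centre, was lower, at 3.52, 4.02, 4.16, 3.18, 2.92 and 3.42. Its groups were close to touching, with a log2 difference of -0.23 (SE 0.141).

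**Figure D4:**
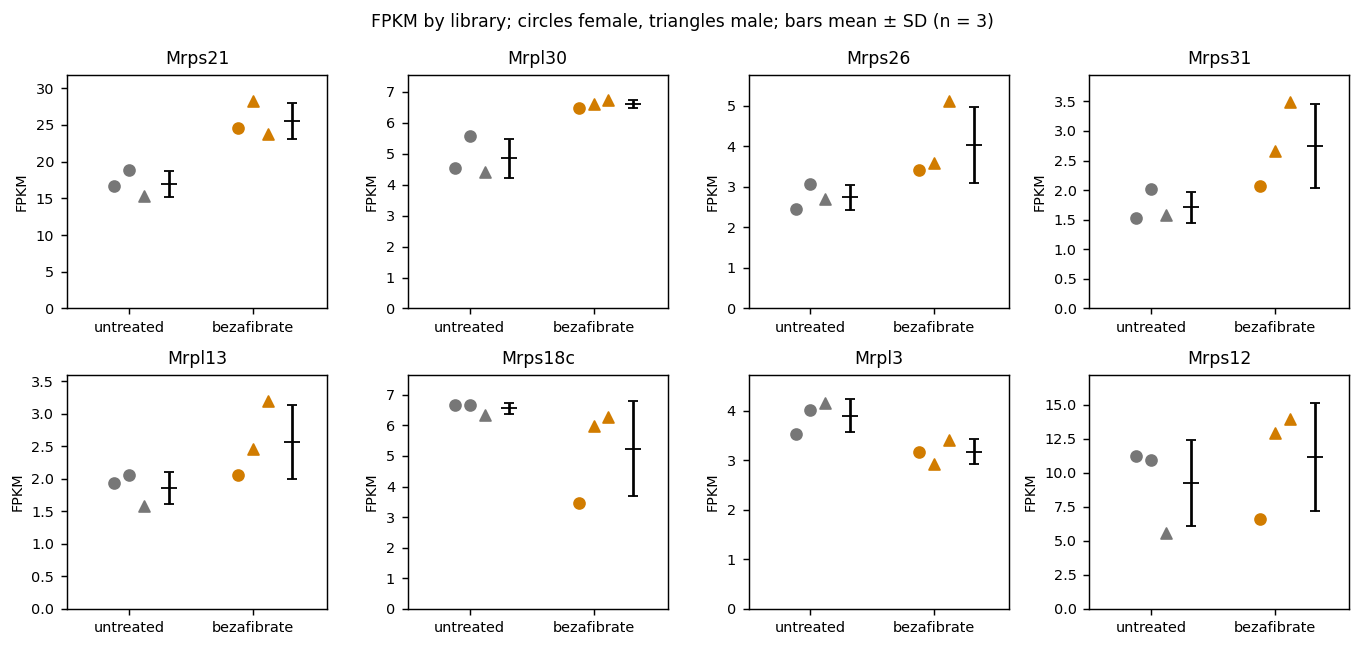
FPKM by library for the 7 members whose groups do not overlap and for Mrps12, untreated in grey and bezafibrate in orange, circles female and triangles male; bars show the mean ± SD (n = 3). Mrps21 lies at 15.4 to 18.9 untreated and 23.8 to 28.3 with bezafibrate, while the groups of Mrps12 overlap widely.

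The promoters of the 4 members at an unadjusted limma p under 0.05 are shown. They were picked by that p, so their difference between the groups follows from the choice, and none was called. Of the 4, 3 hold a match to the site of nuclear respiratory factor 1 (NRF1), an activator of many nuclear genes for mitochondria. The sequences are from RefSeq (GRCm38.p6), 250 bases before to 50 after the start, 5′ to 3′ on the strand of the gene. Capitals mark matches to GCGC, any base, then TGCGC (NRF1) or to CCGGAAG (the ETS family, which includes GABP), on either strand. The regions are chr3:95871465-95871764 (minus strand) for Mrps21, chr1:37890227-37890526 (plus) for Mrpl30, chr2:130563507-130563806 (plus) for Mrps26 and chr8:22411090-22411389 (plus) for Mrps31.
Mrps21: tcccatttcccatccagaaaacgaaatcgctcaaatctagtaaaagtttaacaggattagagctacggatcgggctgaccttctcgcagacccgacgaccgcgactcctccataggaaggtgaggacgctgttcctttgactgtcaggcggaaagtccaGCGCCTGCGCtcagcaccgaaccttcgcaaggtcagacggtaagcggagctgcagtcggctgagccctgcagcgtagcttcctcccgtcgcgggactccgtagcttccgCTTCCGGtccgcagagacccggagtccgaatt
Mrpl30: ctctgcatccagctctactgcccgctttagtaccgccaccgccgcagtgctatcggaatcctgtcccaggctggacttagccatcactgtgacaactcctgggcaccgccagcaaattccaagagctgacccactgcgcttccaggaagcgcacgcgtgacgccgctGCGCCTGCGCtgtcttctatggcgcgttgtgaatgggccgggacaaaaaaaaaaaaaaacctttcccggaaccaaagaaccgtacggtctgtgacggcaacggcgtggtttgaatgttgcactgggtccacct
Mrps26: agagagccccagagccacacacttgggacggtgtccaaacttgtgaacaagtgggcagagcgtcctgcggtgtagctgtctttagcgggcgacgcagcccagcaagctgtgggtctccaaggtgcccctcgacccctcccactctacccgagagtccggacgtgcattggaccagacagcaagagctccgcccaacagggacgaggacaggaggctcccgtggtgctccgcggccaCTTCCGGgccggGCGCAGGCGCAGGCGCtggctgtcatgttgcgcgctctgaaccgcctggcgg
Mrps31: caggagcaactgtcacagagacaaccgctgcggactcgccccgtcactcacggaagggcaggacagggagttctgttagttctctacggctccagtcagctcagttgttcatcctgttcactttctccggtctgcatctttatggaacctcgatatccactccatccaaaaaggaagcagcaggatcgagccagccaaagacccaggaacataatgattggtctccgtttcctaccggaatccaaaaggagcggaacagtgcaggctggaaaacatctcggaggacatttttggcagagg

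Mrps21 has an NRF1 match at -91 and an ETS match at 18, counted in bases from the start. Mrpl30 has an NRF1 match at -83. Mrps26 has an ETS match at -14 and 2 overlapping NRF1 matches at -2 and 4. In Mrps31 these letters are not in the window. RefSeq promoters were matched to 68 of 77 members. Of these 13 (19.1%) hold the NRF1 motif, against 4.8% of all 27025 promoters and 11.3% of the 7984 promoters of protein-coding genes tested. The ETS motif is in 25 (36.8%, against 9.1% and 19.6%), the YY1 motif AAGATGGCG in 8 (11.8%, against 1.5% and 3.7%) and the Sp motif GGGCGG in 33 (48.5%, against 35.9% and 67.7%), each on both strands. The median log2 difference was 0.19 in the 13 measured members with an NRF1 match and 0.055 in 53 without. For ETS it was 0.01 in 23 with a match and 0.10 in 43 without. For YY1 it was 0.085 in 8 with a match and 0.086 in 58 without. For Sp it was 0.079 in 32 with a match and 0.094 in 34 without. No test was made of these splits. A match describes letters in a window, and binding was not measured.

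Members with a described role outside or inside the ribosome followed no common direction. Mrpl12, which also binds the mitochondrial RNA polymerase and forms the flexible stalk, had 8.86, 7.29, 7.35, 10.2, 6.60 and 5.56 FPKM. It was highest in bezafibrate F_1 and lowest in the male bezafibrate libraries, with a log2 difference of -0.10. Its stalk partners had differences of 0.25 for Mrpl10 (9.64, 11.2, 8.04, 8.03, 12.9 and 14.9) and 0.28 for Mrpl11 (3.78, 4.71, 3.36, 5.05, 4.62 and 5.34). Mrpl10 was high in the male bezafibrate libraries and the groups of both genes overlapped. Mrpl45, which contacts the inner membrane at the tunnel exit, had 3.41, 3.29, 2.55, 2.33, 5.15 and 4.86. Mrpl44, with a ribonuclease III-like fold, had 4.93, 4.78, 6.72, 3.92, 7.35 and 10.7. In Mrpl45 and Mrpl44 the male bezafibrate libraries were the highest and the female bezafibrate library the lowest, and the log2 differences were 0.28 and 0.29. Mrpl58, a peptidyl-tRNA hydrolase that rescues stalled ribosomes, had 4.28, 4.16, 3.35, 3.89, 4.94 and 5.69. Mrpl32, which is matured by the m-AAA protease before assembly, had 1.70, 1.25, 1.27, 0.647, 1.59 and 1.68. The log2 difference was 0.24 for Mrpl58 and -0.09 for Mrpl32, with overlapping groups.

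In the small subunit, Mrps5, named in studies of lifespan in the worm, was the steadiest member, at 5.72 to 6.51 FPKM over the 6 libraries (coefficient of variation, the SD as a percent of the mean, 5.98%, log2 difference -0.06). Mrps16, mutated in a human disorder of oxidative phosphorylation, had 4.10, 5.68, 6.37, 4.93, 3.91 and 6.51, with mixed groups. The other relatives of Mrps18c were Mrps18b (1.98, 1.21, 1.42, 2.05, 1.89 and 1.78) and Mrps18a (2.86, 2.91, 4.60, 2.98, 3.87 and 3.19), with log2 differences of 0.21 and -0.02 beside -0.31 for Mrps18c. The 3 copies thus did not share a direction, and their groups overlapped in Mrps18a and Mrps18b. Mrps30 had 1.57, 1.499, 1.97, 1.15, 1.56 and 1.37 (log2 difference -0.18). Mrps12, a decoding-centre protein, had 11.2, 10.96, 5.59, 6.62, 12.9 and 14.0, and Mrps36 had 6.29, 5.02, 3.38, 1.57, 6.24 and 7.14. In both, untreated M_1 and bezafibrate F_1 were the lowest libraries, and the log2 differences were 0.24 (SE 0.330) and -0.11 (SE 0.432).

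The treatment groups did not separate in the library means of the members. Mean log2(FPKM + 1) over the 46 large-subunit genes was 2.74, 2.72, 2.62, 2.61, 2.83 and 2.93 in the library order given above. Over the 28 small-subunit genes it was 2.39, 2.43, 2.33, 2.25, 2.57 and 2.64. Both subunits were highest in the male bezafibrate libraries and lowest in bezafibrate F_1 with untreated M_1 next, so the groups overlapped. The large subunit exceeded the small by 0.27 to 0.36 in every library. With Mrps18a, Mrps30 and Mrps36 moved as above, the gap was 0.17 to 0.27. Bezafibrate M_2 held the highest value of 32 of 74 members (43.2%), where it held that of 19.2% of all genes tested, and the lowest of 2 (2.7% against 19.0%). Untreated M_1 held the lowest value of 24 members (32.4% against 20.8%) and bezafibrate F_1 of 21 (28.4% against 16.7%). Of all reads the 77 members took 0.105%, 0.0983%, 0.0869%, 0.0897%, 0.123% and 0.133%. Summed reads over the library size used for FPKM were 0.950, 1.03, 1.09, 1.06, 0.889 and 0.897 in the same order. That ratio was highest in untreated M_1 and bezafibrate F_1 and lowest in the male bezafibrate libraries. A fit with the ratio as a covariate is given at the end.

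**Figure D5:**
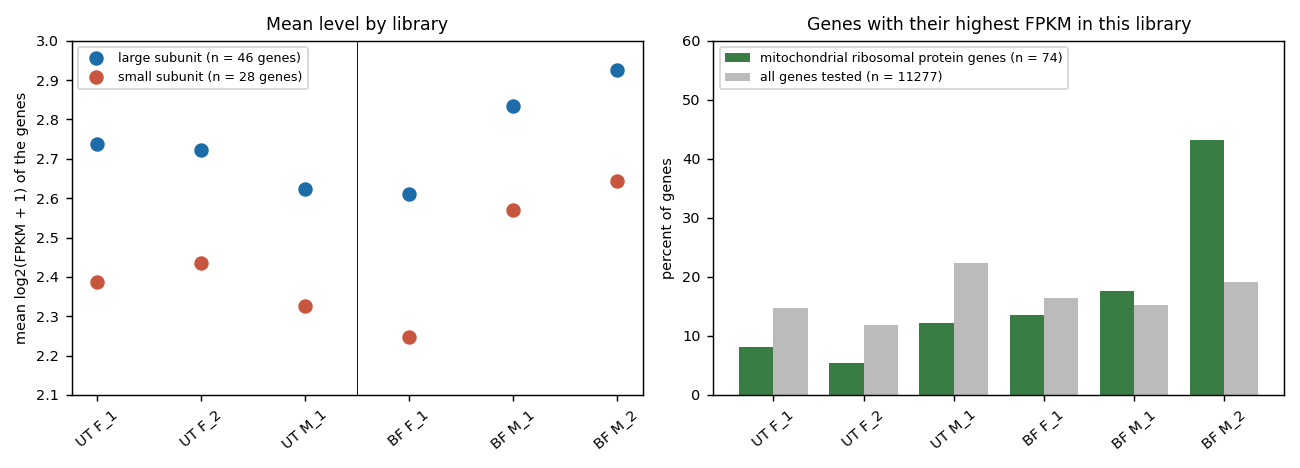
Left, mean log2(FPKM + 1) over the measured large-subunit (blue) and small-subunit (red) genes in each library, on an axis that starts at 2.1; right, the percent of genes with their highest FPKM in each library, for the 74 members (green) and all 11277 genes tested (grey). UT is untreated and BF bezafibrate, and bezafibrate M_2 holds the highest value of 43.2% of members against 19.2% of all genes.

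The same libraries differed in other transcripts. Choroid plexus and ependymal markers (5 of 5 measured, none at 0) summed to 399.7, 357.8, 383.0, 405.5, 552.4 and 936.4 FPKM, mostly Ttr, the transthyretin of choroid plexus, with the highest value in bezafibrate M_2. All 5 lay above 0, with a median log2 difference of 0.39. The 10 endothelial markers summed to 5843, 7697, 8860, 8459, 5068 and 5655 FPKM and all 10 lay below 0, with a median of -0.17. Markers of pericytes, astrocytes and oligodendrocytes, 6 of each and none at 0, all lay below 0, with medians of -0.29, -0.31 and -0.43. They summed to 180.5 to 321.0, 38.2 to 57.6 and 78.9 to 133.9 FPKM in untreated libraries and to 170.5 to 246.8, 24.6 to 45.9 and 76.4 to 85.1 in bezafibrate libraries. Other lists were mixed, with 1 of 3 measured smooth muscle, 1 of 3 microglia and leukocyte and 1 of 4 erythrocyte markers above 0. Erythrocyte markers summed to 298.0, 45.4, 64.6, 117.1, 51.4 and 148.8 FPKM. The part of all these markers in the members' values was not tested. In such bulk samples, fewer cells of a type and less RNA per cell cannot be told apart.

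Sex and library were entangled with the treatment. Within females, where 2 untreated libraries face bezafibrate F_1, the members' mean log2 level was 0.135 lower with bezafibrate (2.61 against 2.47). Within males, where untreated M_1 faces 2 bezafibrate libraries, it was 0.265 higher (2.51 against 2.78). The same differences over all genes were 0.007 and -0.021. Of 74 members, 36 (48.6%) were lower in females and higher in males, beside 30.8% of all genes, and 12 (16.2%) the reverse, beside 33.5%. In a limma fit with an interaction of treatment and sex, which leaves 2 residual degrees of freedom and takes its spread from the untreated females and bezafibrate males alone, 0 of 74 members were called beside 0.665% of all genes, and 14 members lay at an unadjusted p under 0.05 beside 21.3% of all genes. The lone untreated male and bezafibrate female libraries are assumed to vary like the others. Under that assumption Mrps12 had the smallest p, with log2 differences of -0.66 in females and 1.13 in males (difference 1.79, SE 0.258, limma adjusted p = 0.0504). Mrps36 followed with -1.37 and 0.81 (difference 2.17, SE 0.318, limma adjusted p = 0.0525). The interaction sets untreated M_1 and bezafibrate F_1 against the other 4 libraries. These libraries also have the highest scores on the first principal component. Each is the only library of its sex and chow, so a dependence on sex and the state of those libraries cannot be told apart. Between the sexes, with treatment as a covariate, limma called 0 of 74 members beside 0.0266% of all genes. At an unadjusted limma p under 0.05 lay 4 members, beside 2.94% of all genes. The male minus female log2 difference was above 0 in 50 of 74 members. Its median was 0.08, against -0.007 over all genes.

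By descent of the protein, the 27 measured members of families found in all ribosomes had 19 above 0 and a median log2 difference of 0.18. The 28 counted as specific to mitochondria had 22 above 0 and a median of 0.16, led by Mrps31 and Mrpl52 (0.43, SE 0.204). Mrps18a and Mrps18b were counted among them, although they are relatives of Mrps18c, which was counted as shared with bacteria. The 16 of families shared with bacteria had 7 above 0 and a median of -0.03, although Mrps21, the largest difference, is among them. The interquartile ranges overlapped (-0.06 to 0.25, 0.03 to 0.26 and -0.09 to 0.08), and no test was made of the split. It leaves out 3 measured members of unassigned descent. By table length, the 23 members of 2000 to 4000 bases had 20 above 0 and a median of 0.21, where protein-coding genes of that length had 0.01. The 8 members below 1000 bases had a median of 0.01, the 22 from 1000 to 2000 bases 0.10 and the 21 of at least 4000 bases 0.03.

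Neighbouring genes gave a view of shared loci. Of the members, 22 face a protein-coding gene head to head, and 17 of these partners were measured, 11 of them above 0 with a median log2 difference of 0.05. The members of those 17 pairs had 13 above 0 and a median of 0.20. Mrps12 starts 172 bases from Sars2, which charges mitochondrial tRNA with serine and had 1.56 ± 0.531 FPKM untreated and 1.08 ± 0.247 with bezafibrate (SD, n = 3 each). Mrpl30 starts 66 bases from Mitd1, which had a log2 difference of -0.11 beside 0.38 for Mrpl30. Mrps27 starts 81 bases from Ptcd2, a mitochondrial RNA-binding protein, which had 6.01, 4.22, 4.14, 7.17, 10.7 and 10.1 FPKM. Ptcd2 was higher in each bezafibrate library (log2 difference 0.83, SE 0.198, limma adjusted p = 0.962), and Mrps27 had 0.10. Ppp1r10, a regulatory subunit of protein phosphatase, starts 45 bases from Mrps18b and had 36.1, 35.97, 32.2, 27.4, 23.2 and 23.9 FPKM. It was lower in each bezafibrate library (log2 difference -0.47, SE 0.133, limma adjusted p = 0.986), beside 0.21 for Mrps18b. These 2 were chosen after their values were seen, as the 2 of 17 measured partners at an unadjusted limma p under 0.05, beside 4.19% of all genes tested. Groups did not overlap in 8.42% of all genes tested, and neither partner was called.

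Some members share exon bases with other genes or have pseudogenes. At least 10% of the exon bases of 17 members are shared, led by Mrpl53 and Mrps25 above, with 63.42% for Mrps34 with Mapk8ip3, 33.36% for Mrpl43 with Twnk, the mitochondrial DNA helicase. Whether the authors counted by strand is not stated, so such reads cannot be told apart. The 15 measured members that share at least 10% had 9 above 0 and a median log2 difference of 0.01, and the 59 that share less had 40 above 0 and a median of 0.09. Mrps36 had 161, 114, 80, 36, 169 and 171 reads and its pseudogene Mrps36-ps1 had 0, 0, 0, 11, 1 and 5. Mrpl23, of a family found in all ribosomes, had 289, 89, 194, 79, 229 and 175 reads and Mrpl23-ps1 had 7, 12, 13, 53, 31 and 4. In both pairs the pseudogene had its most reads in bezafibrate F_1, where the parent had its fewest. In that library Mrpl23-ps1 had 53 reads beside 79 for Mrpl23, and Mrps36-ps1 had 11 beside 36 for Mrps36. Mrpl48 and its pseudogene Mrpl48-ps did not show this, with 424, 441, 387, 464, 450 and 477 reads against 9, 0, 14, 5, 15 and 9. Mrps36-ps2 had 6, 0, 0, 7, 0 and 0 reads, and Mrps36-ps3 had 0 in each library. Whether reads were exchanged between parents and pseudogenes was not tested.

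The partners of these proteins were examined through lists of known genes. The rRNAs of the mitochondrial ribosome were lower on average, with overlapping groups. mt-Rnr1, the small-subunit rRNA, had 2271 ± 357 FPKM untreated and 1821 ± 305 with bezafibrate (SD, n = 3 each), and mt-Rnr2, the large-subunit rRNA, 3438 ± 363 and 2993 ± 408. Of the 13 mRNAs that this ribosome translates, 1 lay above 0, with a median log2 difference of -0.23. Groups did not overlap in 3 of the 13 (23.08%), all lower with bezafibrate, beside 8.42% of all genes tested. The mean log2 level of the 13 was 8.10, 7.69, 7.97, 7.58, 7.64 and 7.77. It was highest in untreated F_1, and untreated F_2 lay within the bezafibrate range. None of these rRNAs and mRNAs passed the threshold. Of 77 measured proteins of the cytosolic ribosome, 28 lay above 0 with a median of -0.05, and their mean log2 level of 6.40, 6.501, 6.51, 6.64, 6.18 and 6.501 was highest in bezafibrate F_1, where the mitochondrial proteins were lowest.

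Further mitochondrial ribosomal proteins carry other names. Of 5 such genes 3 lay above 0 with a median of 0.05, and Aurkaip1, the most abundant, had 21.7 ± 1.09 and 24.0 ± 5.69 FPKM. Of 21 measured genes for assembly and rRNA modification, 17 lay above 0 with a median log2 difference of 0.13. The most abundant was Mpv17l2, which binds the large subunit, at 11.2 ± 1.31 and 12.5 ± 3.14 FPKM. The mean log2 level of the assembly genes was 1.83, 1.79, 1.88, 1.73, 2.03 and 2.14, again lowest in bezafibrate F_1 and highest in bezafibrate M_2. Of 13 translation factors 9 lay above 0, with a median of 0.07. Tufm, the elongation factor that delivers tRNA, had 9.20 ± 1.88 and 11.8 ± 1.39 FPKM. Tsfm, its exchange factor, had 1.82, 2.07, 1.48, 2.58, 2.46 and 2.38, and the initiation factor Mtif3 had 0.669, 0.963, 0.452, 1.20, 1.40 and 1.39. In both, each bezafibrate library was above each untreated one (log2 differences 0.32, SE 0.160, and 0.47, SE 0.199). These were the 2 translation factors whose groups do not overlap. Among the assembly genes the groups did not overlap in Nsun4 and Mettl15, rRNA methyltransferases, both lower with bezafibrate (log2 differences -0.23, SE 0.158, and -0.49, SE 0.230). Of 16 mitochondrial aminoacyl-tRNA synthetase and amidotransferase genes 8 lay above 0, with a median of 0.01, and Gatc was the most abundant at 8.51 ± 1.24 and 9.83 ± 4.51. Among these the groups did not overlap in Hars2 (higher, 0.20), Iars2 and Wars2 (lower, -0.19 and -0.25). Genes with groups apart were named after their values were seen, and made up 15.38% of the translation factors, 9.52% of the assembly genes and 18.75% of the synthetases, beside 8.42% of all genes tested. Of the m-AAA protease, which matures Mrpl32, Spg7 had 12.9 ± 1.18 and 12.1 ± 1.13 FPKM and Afg3l2 8.20 ± 1.26 and 8.35 ± 1.09. In these lists limma called 0 genes.

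Regulators of such genes were present at low to moderate level. Yy1 was the most abundant, at 18.4, 21.5, 29.3, 26.4, 17.7 and 18.3 FPKM, and was highest in untreated M_1 and bezafibrate F_1. Gabpa, the DNA-binding part of GABP, had 9.61, 8.91, 8.73, 11.3, 10.1 and 11.02, with each bezafibrate library above each untreated one (log2 difference 0.23, SE 0.126). It was the only 1 of 6 measured regulators (16.67%) with groups apart, beside 8.42% of all genes tested. Gabpa was not called (limma adjusted p = 0.9987). Nrf1 had 3.39 ± 0.486 and 3.03 ± 0.630 FPKM. Of 6 measured regulators 2 lay above 0, with a median of -0.12. The coactivator genes Ppargc1a and Ppargc1b, with means under 0.4 FPKM, and Myc did not pass the filter.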

How the data were processed

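Expression was measured in 6 libraries. Per the labels' protocols, live CD31+ CD45- PDGFRb- cells were sorted from dissociated brains, cDNA was made with SMART-Seq HT and libraries with Nextera XT, and single-end reads of 75 bases were de-duplicated and mapped with Salmon. The submitters' processing notes name GRCm38. The sources used here do not state how FPKM were made, with which annotation or whether by strand.

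The authors deposited FPKM for 54532 genes. The column of the untreated male library is numbered differently from its title and was assigned through its description. FPKM multiplied by gene length gave whole reads for 100% of values (tolerance 0.01 reads). Those reads gave depth and a limma-voom fit. Because reads were whole, FPKM reflects gene counts per table length. Reads of the 74 members past the filter averaged 69.0 to 979.7 per library, and their median coefficient of variation over libraries was 22.5% against 6.63% from counting alone.

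Analysis used log2(FPKM + 1), which understates changes where levels are low, a filter of 1 FPKM in at least 3 libraries, and limma 3.58.1 (lmFit, eBayes with trend, two-sided) in R 4.3.3, with Benjamini-Hochberg adjustment over all 11277 genes tested. The treatment fit had no covariate because the sexes were combined, per the labels. Other pseudocounts, filters, scalings, covariates, a replicate block and libraries left out were tried. The principal transcript length and the interaction fit were added after seeing the data. Members, lists and the rule for named genes (groups that do not overlap, highest and lowest levels, described roles, members below the filter and the most abundant gene of a companion list) were chosen with earlier results of these data known. Exon sharing came from GENCODE and promoters from RefSeq, both on GRCm38.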

Additional observations from a re-analysis of the deposited data

Results flagged for a closer look

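The members' mean log2 level moved in opposite directions in the 2 sexes. In females the bezafibrate library lay below both untreated libraries, by -0.118 for the large subunit (2.61 against 2.73) and -0.162 for the small subunit (2.25 against 2.41). In males both bezafibrate libraries lay above the untreated library, by 0.256 (2.88 against 2.62) and 0.28 (2.61 against 2.33). The difference between the sexes in these means was not tested. Gene by gene, the limma interaction called 0 of 74 members. The female value rests on bezafibrate F_1 and the male value on untreated M_1, each the only library of its sex and chow and the 2 with the highest scores on the first principal component, so sex and library cannot be told apart.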

How the results depend on the processing

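The count of members called for treatment was 0 under every alternative run, which covered the pseudocount, filter, scaling, covariates, replicate block, limma-voom and libraries left out, and the sex fit gave 0 with a pseudocount of 0.1 and with a filter of 5 FPKM. Over all genes the count of 1 became 0 with the replicate block, 0 by limma-voom and 0 when untreated M_1 and bezafibrate F_1 were both left out, and ran from 0 to 3 with single libraries left out (3 without bezafibrate F_1, 0 without bezafibrate M_1 or M_2). The cause was not tested. The median difference of the large subunit ran from 0.06 with the composition ratio (summed reads over the library size used for FPKM) as a covariate to 0.21 when rescaled to TPM. That of the small subunit ran from -0.002 to 0.218 under the same settings. Under TPM the all-gene median went from -0.01 to 0.10, so that relative to it the members shifted little. The share of members above 0 was 81.1% with TPM, 54.1% with the composition covariate and 83.8% without bezafibrate F_1, where 13 members lay at an unadjusted p under 0.05 (8.71% of all genes) and the smallest adjusted p by limma was 0.377. Without both untreated M_1 and bezafibrate F_1, 8 members did, beside 8.41% of all genes, and the smallest was 0.290. Leaving out single libraries moved the medians between 0.07 and 0.14 (large) and 0.03 and 0.21 (small). By the sample titles, only the names F_1 and M_1 occur in both groups. Their deviations were correlated at -0.363 and -0.299, so they were not taken as pairs. The column of the untreated male library is numbered M_2, so the M_1 correlation and the replicate block rest on the titles. With the replicate block the medians were 0.058 and 0.065. The median level was 4.60 FPKM with the deposited lengths and 8.36 with principal transcript lengths. With 3 libraries a group, the median SE of a single member's difference was 0.203, which does not measure the spread of a median over genes. In the main fit the median difference of either subunit was below the pooled SD of its library means within groups (0.122 large and 0.153 small).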
